A study of Mus musculus with 8 samples.

Results

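The genes described here encode receptors with which macrophages take up apoptotic cells, a process called efferocytosis, and the bridging molecules that link these receptors to a dying cell. They were chosen by symbol, and all 10 (Mertk, Axl, Tyro3, Gas6, Pros1, Mfge8, Stab1, Timd4, Trem2 and Lrp1) had a row among the 53735 genes of the RNA-seq count tables. Bone marrow derived macrophages (BMDMs) were differentiated in culture for 7 days from bone marrow of male mice, 6 months old and infused with Ang II for 7 days. WT mice were Mkl1+/+, Apoe-/- and KO mice were Mkl1-/-, Apoe-/-, with Mkl1 deleted in the whole body. All mice thus lacked Apoe and received Ang II, and no saline-infused group was sequenced. The study asked what MKL1, a coactivator of serum response factor (SRF), does in inflammation and aortic aneurysm under Ang II. Of the 8 libraries, WT 1 and 2 and KO 5 and 6 made up experiment 1, and WT 3 and 4 and KO 7 and 8 made up experiment 2. The labels do not say if each library came from its own mouse, so the p-values measure only the spread between these libraries.

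As background, a dying cell shows phosphatidylserine on its surface. Macrophages see this lipid directly, through receptors such as TIM-4 (Timd4) and stabilin-1 (Stab1), or through bridging proteins that bind it. GAS6 (Gas6) and protein S (Pros1) bridge to the TAM receptor tyrosine kinases TYRO3, AXL and MERTK. MFG-E8 (Mfge8) bridges to αv integrins. LRP1 is a large endocytic receptor, and TREM2 senses lipids and signals through the adaptor DAP12 (Tyrobp). MERTK is known as the main TAM receptor of resting and tolerogenic macrophages, and AXL as one that inflammatory and interferon signals raise.

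Total counts were between 33977799 and 41584540 per library. Levels are given as CPM, counts scaled to the size of each library, after TMM scaling over all libraries. KO was compared with WT inside each experiment (2 libraries against 2) by edgeR's quasi-likelihood test, and p-values were adjusted over all 14418 genes with enough counts. Replicates of experiment 2 lay further apart than those of experiment 1, with a chi-square per gene of 67.4 in WT and 80.4 in KO against at most 15.9 in experiment 1. Mkl1, the deleted gene, had 25.6, 27.1, 26.8 and 29.6 CPM in WT 1 to 4 and 19.5, 20.9, 14.6 and 10.4 CPM in KO 5 to 8. It was lower in both KO groups, by 0.39 and 1.17 on the log2 scale (adjusted p = 0.00381 and 0.0218), and reads on it remained. Among macrophage markers all 10 were expressed in every group, with 5 higher and 5 lower in KO of experiment 1 and 3 higher and 1 lower in experiment 2. Csf1r was higher and then lower (0.82 and -1.28 on the log2 scale), and Adgre1 (F4/80) the other way (-2.11 and 0.91). The latter had 8328 and 7102 CPM in WT and 1929 and 1669 CPM in KO of experiment 1, and 2678 and 2720 CPM in WT and 4874 and 5264 CPM in KO of experiment 2. Neutrophil, dendritic cell and lymphocyte markers summed to at most 2.895 CPM in any library, with Cd3e and Retnlg at 0 in all. In the endothelial list Vwf and Kdr were expressed, while the defining markers Cdh5, Tek and Pecam1 reached at most 2.02 CPM. The endothelial sum was between 71.8 and 90.4 CPM in WT and 165 and 191 CPM in KO of experiment 1, and between 118 and 223.5 CPM in WT and 68.5 and 107 CPM in KO of experiment 2. Fibroblast markers stood apart: their sum lay between 178 and 234.5 CPM in KO 5 and 6 and was at most 12.1 CPM elsewhere.

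In experiment 1, 8 of the 9 tested members were higher in KO and none was lower, where 27.0% of all genes tested were higher and 28.1% lower (33.1% and 22.2% with upper-quartile scaling, which moved the median of all genes from 0.01 to 0.11 on the log2 scale). Axl, Gas6 and Mertk differed most, by 8.11-fold, 5.62-fold and 3.14-fold of the mean CPM. In experiment 2, edgeR called none higher (background 7.52%) and only Axl lower (background 8.29%). At an unadjusted p under 0.05, Mertk and Stab1 were higher there and Axl was lower, where 4911 of all 14418 genes passed in either direction. DESeq2 also called Mertk and Stab1 higher and Axl lower, where it called 1516 genes higher and 1657 lower. Timd4 was too low to be tested. The median log2 fold change of the 9 was 0.74 in experiment 1 and 0.26 in experiment 2, beside 0.01 and 0.01 over all genes tested. The KO effect differed between the experiments for 4 members, Axl, Gas6, Mfge8 and Trem2, at an adjusted p under 0.05 in edgeR's interaction test. Of all genes, 41.6% passed it, so these 4 of the 9 are near the background. With both experiments in a single fit, Mertk and Stab1 were higher in KO (background 3.72%) and no member was lower (background 3.41%). With upper-quartile scaling these backgrounds were 5.23% and 2.55%. At an unadjusted p under 0.05 in edgeR, Gas6 and Tyro3 were higher as well and no member was lower. There, 3633 of all 14418 genes passed in either direction. DESeq2 called Gas6 higher besides Mertk and Stab1 and no member lower, where it called 1236 genes higher and 1256 lower. Fibroblast markers rose in the KO libraries of experiment 1 as well (7 of 7 tested), with Col1a2 at 81.8 and 105 CPM against 2.26 and 5.08 CPM in WT. Of 4 tested endothelial markers, 2 rose there too (Vwf and Kdr, by 1.23 and 0.82 on the log2 scale, adjusted p = 0.0132 and 5.05e-05 by edgeR). None fell past the threshold, with Pecam1 at -0.95 (adjusted p = 0.0772) and Cdh5 at 0.61 (adjusted p = 0.307). In experiment 2, Pecam1 rose and Cdh5 fell (1.62 and -2.06, adjusted p = 0.0456 and 0.0357), and Kdr had -2.12 (adjusted p = 0.0517). Axl, Gas6, Pros1, Mfge8 and Lrp1 are also expressed by fibroblasts, and the part of other cells in these differences was not tested. In bulk RNA, a change in cell number and a change in RNA per cell cannot be told apart.

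**Figure D1:**
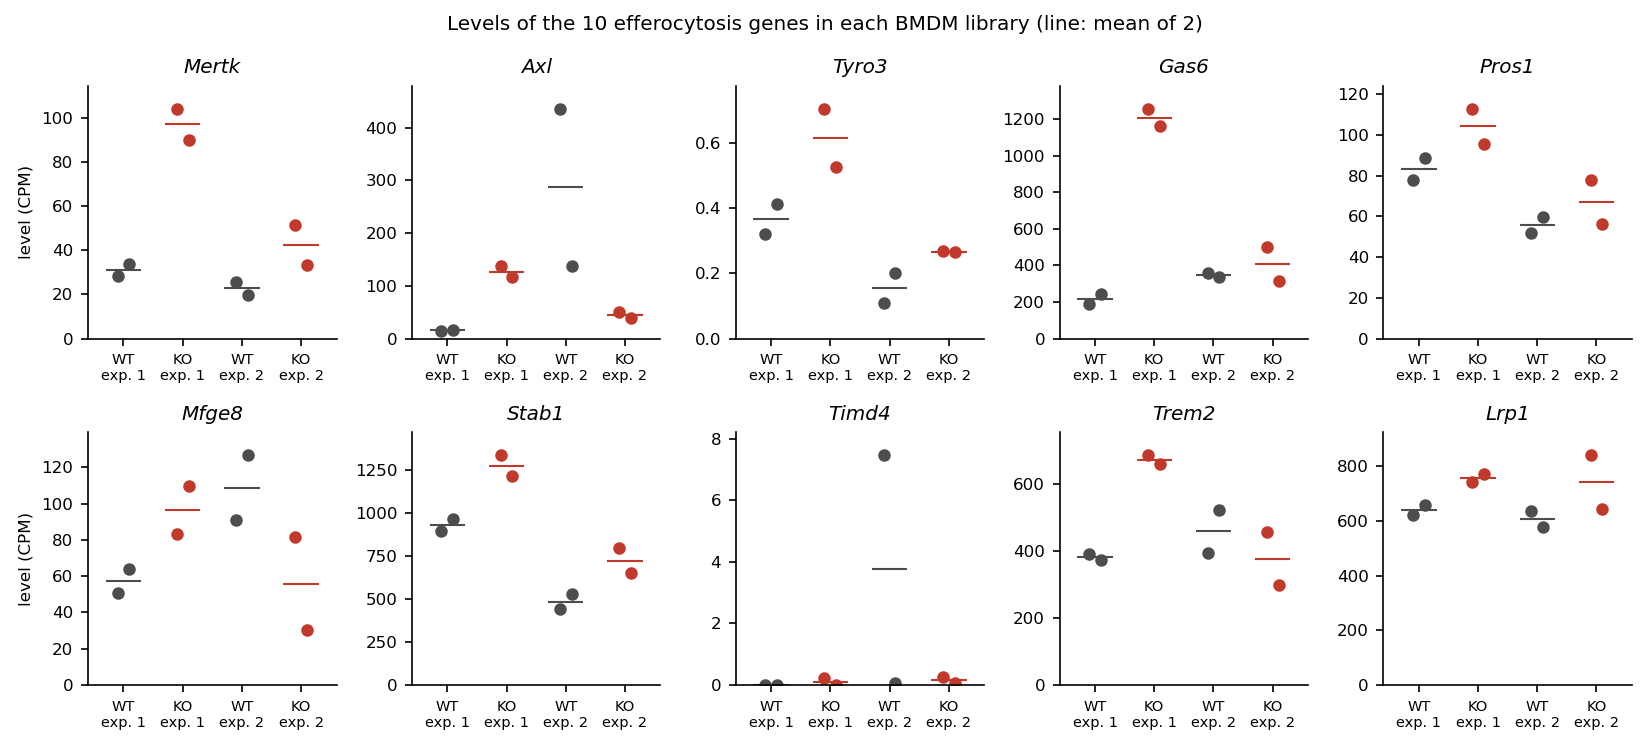
Level in CPM (linear axis from 0) of each of the 10 genes in each library, with WT in grey and KO in red, and a line at the mean of the 2 libraries of a group. KO of experiment 1 holds the highest group mean for Mertk, Tyro3, Gas6, Pros1, Stab1, Trem2 and Lrp1, while WT of experiment 2 holds it for Axl, Mfge8 and Timd4.

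The upstream sequences of Axl, Gas6 and Mertk are shown because these 3 members rose most in experiment 1. Each run holds the 250 bases before the RefSeq gene start on GRCm38.p6, read 5′ to 3′ on the gene's strand, with GC boxes (GGGCGG or its complement CCGCCC, the motif of SP1) in capitals.
Axl, chr7:25788734-25788983, - strand: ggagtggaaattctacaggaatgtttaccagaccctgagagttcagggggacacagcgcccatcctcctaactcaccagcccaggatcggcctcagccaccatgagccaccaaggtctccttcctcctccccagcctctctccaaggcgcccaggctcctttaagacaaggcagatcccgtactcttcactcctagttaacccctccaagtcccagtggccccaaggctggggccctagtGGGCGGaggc
Gas6, chr8:13494536-13494785, - strand: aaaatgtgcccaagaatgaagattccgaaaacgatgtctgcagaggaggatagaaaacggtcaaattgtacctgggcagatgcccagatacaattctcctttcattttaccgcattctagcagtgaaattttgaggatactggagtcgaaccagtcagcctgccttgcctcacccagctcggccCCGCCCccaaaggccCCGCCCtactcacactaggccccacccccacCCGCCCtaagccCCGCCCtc
Mertk, chr2:128698665-128698914, + strand: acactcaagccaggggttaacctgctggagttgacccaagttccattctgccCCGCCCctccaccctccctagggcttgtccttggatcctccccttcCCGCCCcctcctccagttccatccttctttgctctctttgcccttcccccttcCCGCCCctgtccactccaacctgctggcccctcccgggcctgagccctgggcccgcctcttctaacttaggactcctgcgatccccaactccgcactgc

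All 10 members matched a RefSeq promoter, a window of 300 bases that runs 50 bases past the start. The CArG box of SRF, through which MKL1 acts, was in none of the 10 windows and in 1.63% of all 32851 promoters. The DR4 element of LXR (2 AGGTCA repeats 4 bases apart, up to 2 mismatches) was in none and in 3.02% of all. The ISRE core of interferon factors (2 GAAA repeats 2 bases apart) was in none and in 3.44% of all. GC boxes were in the windows of 7 members (Mertk, Axl, Tyro3, Gas6, Pros1, Mfge8 and Lrp1) and in 35.7% of all promoters. No TATA box (TATAAA) was found in the members, and 13.6% of all promoters held one. At such shares, 10 windows are too few to tell the absence of any of these motifs from the background. Both strands were searched, and a more distant element would not be seen in these windows.

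Mertk, on chromosome 2 (128698956-128802894, plus strand), had 28.3 and 33.7 CPM in WT and 104 and 90.3 CPM in KO of experiment 1. The values of experiment 2 were 25.9 and 19.7 CPM in WT and 51.5 and 33.3 CPM in KO. KO lay above WT in both experiments, without overlap inside either, although KO 8 was just below WT 2 of the other experiment. The log2 fold change was 1.64 (standard error 0.11, adjusted p = 4.8e-05 by edgeR) in experiment 1 and 0.90 (standard error 0.26, adjusted p = 0.0789) in experiment 2. The interaction was -0.76 (adjusted p = 0.0881 by edgeR). It was -1.07 without KO 7, -0.60 without WT 1, -0.52 without WT 3 and -0.47 without KO 8. With no filter on low counts it was -0.73 (adjusted p = 0.000241). That fit gave the Axl interaction an adjusted p of 1.66e-217, against 0.000917 in the main fit, so its call is not relied on. The value of experiment 2 passed the threshold with DESeq2 (adjusted p = 0.0107) and in a fit of all groups (0.0192), and was 0.55 (adjusted p = 0.185) without KO 7. Over both it was 1.27 (standard error 0.22, adjusted p = 0.0219), and it stayed past the threshold when WT 3 or KO 8 was left out. Without WT 1, WT 2, WT 4, KO 5, KO 6 or KO 7 in turn, the adjusted p rose to between 0.0607 and 0.0766, with log2 fold changes from 1.15 to 1.26. Without an experiment term it was 0.160.

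Axl, on chromosome 7 (25757273-25788705, minus strand), had the widest range of the tested members, 29.6-fold between the lowest and the highest library. It had 14.7 and 16.6 CPM in WT and 138 and 116 CPM in KO of experiment 1. In experiment 2 it had 436 and 138 CPM in WT and 50.2 and 38.9 CPM in KO. KO was thus above WT in experiment 1 and below it in experiment 2, with no overlap in either. The log2 fold changes were 3.01 (standard error 0.11, adjusted p = 3.48e-06) and -2.69 (standard error 0.58, adjusted p = 0.0430), and their difference had an adjusted p of 0.000917 (edgeR). The WT groups alone differed 18.4-fold, with experiment 2 higher. WT 3 stood far above WT 4, and without WT 3 the decrease in experiment 2 was -1.64 (adjusted p = 0.0165). That call was lost without KO 7 (-2.88, adjusted p = 0.132) or KO 8 (-2.52, adjusted p = 0.195), and with no filter on low counts (-2.68, adjusted p = 0.322).

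Tyro3, on chromosome 2 (119797733-119818104, plus strand), was close to the limit of detection, with 4 to 26 counts per library. It had 0.320 and 0.411 CPM in WT and 0.703 and 0.525 CPM in KO of experiment 1, and 0.110 and 0.201 CPM in WT and 0.268 and 0.264 CPM in KO of experiment 2. KO lay above WT inside each experiment, with log2 fold changes of 0.74 and 0.77, and neither passed the test (adjusted p = 0.125 and 0.359 by edgeR). The value of experiment 2 was 0.39 without WT 3 and 1.25 without WT 4. At this depth a difference of that size could not be told from the spread between replicates.

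The balance of the 3 TAM receptors was compared as their shares of the reads on these genes, scaled by exon length. Mertk made up 68.7% and 69.8% in WT and 46.6% and 47.4% in KO of experiment 1. In experiment 2 it made up 6.45% and 14.15% in WT and 54.3% and 49.7% in KO. Axl held nearly all of the rest, from 29.6% in WT 2 to 93.5% in WT 3, and Tyro3 at most 0.5945%. The 4 KO libraries lay close together, with Axl between 45.5% and 53.2%, while the WT libraries fell on either side of them. Against WT, the Axl share in KO was 22.6 percentage points higher in experiment 1 and 41.9 points lower in experiment 2. Over all 8 libraries the mean Axl share was 59.9% in WT and 50.3% in KO, and since the experiments went opposite ways these means say little of either. The two-sided exact permutation test of the means gave p = 0.571, and p = 0.500 with labels exchanged only inside experiments. The smallest p these tests allow is 0.0286 and 0.0556, so the latter could not pass 0.05. Without WT 3 the difference of the means turned from -9.65 to 1.56 points.

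**Figure D2:**
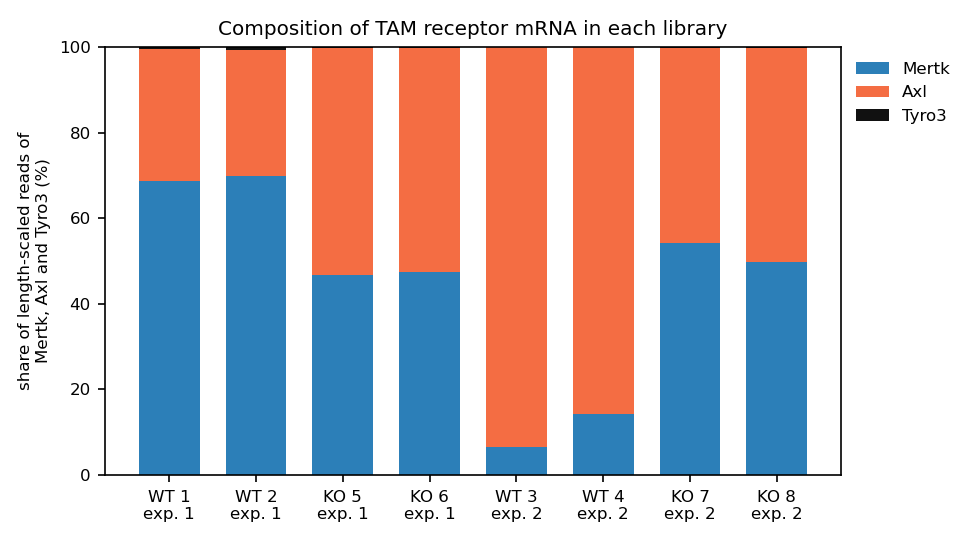
Share in percent of Mertk, Axl and Tyro3 in the length-scaled reads of these 3 genes, as 1 stacked bar per library. The Axl share is 30.8% and 29.6% in WT of experiment 1, 93.5% and 85.75% in WT of experiment 2 and between 45.5% and 53.2% in the KO libraries.

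Of the bridging molecules, Gas6 (chromosome 8, 13465374-13494490, minus strand), the ligand of all 3 TAM receptors, was the most abundant per length in every library. It had 187 and 244 CPM in WT and 1257 and 1161 CPM in KO of experiment 1. Experiment 2 gave 356 and 335 CPM in WT and 499 and 316 CPM in KO. The groups were far apart in the former and overlapped in the latter. The log2 fold changes were 2.48 (standard error 0.14, adjusted p = 5.39e-05) and 0.24 (standard error 0.24, adjusted p = 0.522), and their difference had an adjusted p of 0.00157 (edgeR). In experiment 2 the direction turned without KO 7 (-0.13, adjusted p = 0.584), and the value was 0.53 (adjusted p = 0.147) without KO 8. Over both experiments Gas6 had 1.36 (standard error 0.49, adjusted p = 0.142), which DESeq2 called (1.36, adjusted p = 0.0172). Pros1 (chromosome 16, 62854307-62929346, plus strand), which activates MERTK and TYRO3, had 78.0 and 88.7 CPM in WT and 113 and 95.8 CPM in KO of experiment 1, and 52.0 and 59.7 CPM in WT and 77.7 and 56.2 CPM in KO of experiment 2. Its log2 fold changes were 0.31 (adjusted p = 0.0340) and 0.26 (adjusted p = 0.367). The latter was 0.0085 without KO 7, 0.16 without WT 3 and 0.48 without KO 8. The call in experiment 1 was lost without WT 1 (adjusted p = 0.151), without KO 5 (0.19, adjusted p = 0.104) or when all groups were fitted together (0.153). Per exon length, Gas6 made up 79.3% and 81.5% of the reads of these 2 ligands in WT of experiment 1, 94.7% and 95.1% in KO of experiment 1, and between 90.0% and 91.7% in experiment 2.

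Mfge8 (chromosome 7, 79133768-79149060, minus strand) had 50.8 and 64.1 CPM in WT and 83.2 and 109 CPM in KO of experiment 1. In experiment 2 the order was turned, with 91.1 and 126 CPM in WT and 81.6 and 30.2 CPM in KO. The log2 fold changes were 0.74 (standard error 0.19, adjusted p = 0.0357) and -0.96 (standard error 0.49, adjusted p = 0.239), and their difference had an adjusted p of 0.0494 (edgeR). The increase in experiment 1 was no longer past the threshold without WT 1 (adjusted p = 0.0772), without KO 6 (0.0731) or in a fit of all groups (0.182). The value of experiment 2 rested on single libraries, with -1.85 (adjusted p = 0.0491) without KO 7 and -0.42 (adjusted p = 0.364) without KO 8. The interaction was lost without WT 1, WT 2, WT 3, WT 4, KO 5 or KO 6 in turn, with adjusted p between 0.0839 and 0.167, and by DESeq2 (0.0572).

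Among the receptors that bind the dying cell themselves, Stab1, a scavenger receptor of phosphatidylserine (chromosome 14, 31139013-31168641, minus strand), had 895 and 967 CPM in WT and 1337 and 1218 CPM in KO of experiment 1. In experiment 2 it had 441 and 531 CPM in WT and 799 and 651 CPM in KO. KO lay above WT in each experiment, and experiment 2 was lower than experiment 1 in both genotypes. The log2 fold changes were 0.44 (standard error 0.08, adjusted p = 0.00164) and 0.58 (standard error 0.18, adjusted p = 0.0875), and the interaction test found no difference between them past the threshold (0.12, adjusted p = 0.655), with values from 0.0016 without KO 7 to 0.26 without WT 4 or KO 8. Over both experiments Stab1 was higher in KO by 0.52 (standard error 0.12, adjusted p = 0.0463 by edgeR). Only without KO 8 did the call remain (adjusted p = 0.0488). In the other 7 fits without a library the adjusted p was between 0.0806 and 0.144, and it was 0.0605 with no filter and 0.404 without an experiment term. It stayed past the threshold with DESeq2 (0.000267), upper-quartile scaling (0.0335) and 10 counts in every library (0.0404). The value of experiment 2 passed with DESeq2 (adjusted p = 0.0163), in a fit of all groups (0.0179) and with no filter (0.0324). Stab1 overlaps Nt5dc2 on the opposite strand, which had 32407 counts in all against 261963 for Stab1, and the strand setting of the counting is not given in the sources used here.

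Trem2 (chromosome 17, 48346401-48354147, plus strand) had 391 and 374 CPM in WT and 686 and 661 CPM in KO of experiment 1. In the other experiment the levels were 394 and 524 CPM in WT and 457 and 298 CPM in KO, and the groups overlapped. It was higher by 0.80 on the log2 scale (standard error 0.06, adjusted p = 2.68e-05) in experiment 1, against -0.28 (standard error 0.26, adjusted p = 0.491) in experiment 2. The latter was -0.62 without KO 7, -0.47 without WT 3, -0.06 without WT 4 and -0.0061 without KO 8. Its interaction was -1.10 (adjusted p = 0.0212 by edgeR) and was lost without WT 1, WT 2, WT 4, KO 5 or KO 6, with adjusted p between 0.0598 and 0.0792. Tyrobp, its adaptor DAP12, had log2 fold changes of 0.06 and -0.13, neither past the threshold (adjusted p = 0.483 and 0.523).

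Lrp1 (chromosome 10, 127538161-127621148, minus strand) was the steadiest member, with a range of 1.45-fold over all libraries. It had 623 and 660 CPM in WT and 741 and 772 CPM in KO of experiment 1, and 637 and 579 CPM in WT and 840 and 644 CPM in KO of experiment 2. KO was above WT in each, although KO 8 and WT 3 of experiment 2 were nearly level. The log2 fold changes were 0.23 (standard error 0.07, adjusted p = 0.0204) and 0.29 (standard error 0.18, adjusted p = 0.318). The second value was 0.083 without KO 7 and 0.47 without KO 8. The call in experiment 1 did not hold without WT 1 (adjusted p = 0.0948) or KO 6 (0.103), nor in the fit of all groups (0.194, edgeR).

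Timd4 (chromosome 11, 46810800-46844332, plus strand), a marker of resident rather than cultured macrophages, was found mainly in 1 library. WT 3 held 272 counts (7.46 CPM). The others held 0, 0 and 2 counts in WT 1, 2 and 4 and 8, 0, 11 and 3 counts in KO 5 to 8. With 0 counts, a level of up to 0.0880 CPM (3 counts) is allowed in WT 2, a limit for counting error only. With no filter on low counts, edgeR called Timd4 in experiment 1 (adjusted p = 0.0459) and in the interaction (adjusted p = 1.81e-10), but not in experiment 2 (0.651). These calls rest on 8 counts in KO 5 and 272 counts in WT 3, so the genotypes are not compared here. WT 3 was also the library with the highest Axl and the highest Kdr (173 CPM).

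**Figure D3:**
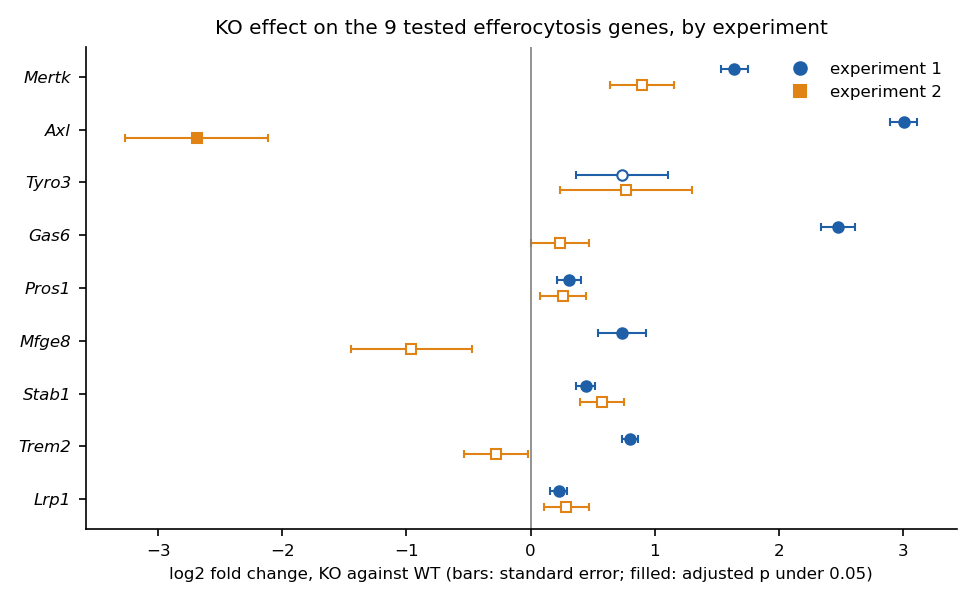
Log2 fold change of KO against WT (horizontal axis) for the 9 tested members, in experiment 1 (circles) and experiment 2 (squares), with the standard error as bars and filled marks for an adjusted p under 0.05. In experiment 1 all 9 values are above 0, from 0.23 for Lrp1 to 3.01 for Axl, while in experiment 2 Axl, Mfge8 and Trem2 are below 0.

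Per length, as CPM per kb of exon and averaged over all libraries, Gas6 had 214, Trem2 95.7, Stab1 83.1 and Lrp1 38.8. Axl had 23.6, Pros1 19.0, Mfge8 17.0 and Mertk 11.2, and Timd4 (0.464) and Tyro3 (0.0565) were far below. The order was not the same in every group. In WT of experiment 1, Stab1 (90.5) was above Gas6 (84.5), while Gas6 led in the other 3 groups. Axl was below Mertk in WT of experiment 1 (3.11 against 7.15 CPM per kb) and above it in WT of experiment 2 (57.1 against 5.26), while KO had 25.2 against 22.4 in experiment 1 and 8.85 against 9.78 in experiment 2. Over the libraries, Gas6 overlapped Trem2 and Stab1, Trem2 overlapped Stab1, and Stab1 overlapped Lrp1. Axl reached 86.6 in WT 3, above every Lrp1 value, and its mean in WT of experiment 2 (57.1) was above Stab1 (47.3) and Lrp1 (34.3). Axl, Pros1, Mfge8 and Mertk also overlapped each other, so these neighbours lie within the spread. In KO of experiment 2 these 2 receptors overlapped, with 9.97 and 7.72 for Axl and 11.9 and 7.68 for Mertk. By the mean CPM of the groups, Mertk, Tyro3, Pros1, Stab1 and Lrp1 had KO of experiment 1 first and WT of experiment 2 last.

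Other genes of apoptotic cell clearance were taken from 5 lists. Of 21 tested receptors and opsonins, 11 were higher and 3 lower in KO of experiment 1, and 1 was higher and 3 lower in experiment 2, with medians of 0.78 and -0.53 on the log2 scale. Over all genes tested, 27.0% were higher and 28.1% lower in experiment 1, and 7.52% higher and 8.29% lower in experiment 2. Thbs1, thrombospondin 1, a bridge to CD36 and αv integrins that fibroblasts also make, had 5.43 and 4.67 CPM in WT and 150 and 192 CPM in KO of experiment 1 (5.06, adjusted p = 1.58e-05), and -0.94 (adjusted p = 0.202) in experiment 2. Cd36 itself fell in experiment 1, from 2389 and 2710 CPM to 684 and 615 CPM (-1.99, adjusted p = 2.51e-06), and had 1.13 (adjusted p = 0.115) in experiment 2. Cd300lf, an inhibitory lipid receptor, rose by 2.49 (adjusted p = 0.00641) in experiment 1 and had -0.62 (adjusted p = 0.583) in experiment 2. Of the integrin subunits that can bind MFG-E8, Itgb3 had log2 fold changes of 2.59 (adjusted p = 1.33e-06) and 0.73 (adjusted p = 0.0845). Itgb5, named after its values were seen, had 92.8 and 112 CPM in WT and 286 and 267 CPM in KO of experiment 1, and 79.2 and 74.6 CPM in WT and 130 and 129 CPM in KO of experiment 2. It was the only gene of this list past the threshold upwards in both experiments (1.42, adjusted p = 3.86e-05, and 0.75, adjusted p = 0.0160 by edgeR). The opsonins C1qa, C1qb and C1qc rose in experiment 1 and had log2 fold changes between -1.02 and -0.58 in experiment 2, none past the threshold.

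Find-me signals draw macrophages to dying cells. Of 9 such genes tested, 4 were higher and 2 lower in experiment 1, and 3 were lower in experiment 2 (medians 0.39 and 0.37), beside 27.0% higher and 28.1% lower of all genes in experiment 1 and 8.29% lower in experiment 2. The 2 lower in experiment 1 are near that background. Cx3cr1, the fractalkine receptor, had 150 and 64.3 CPM in WT and 7.17 and 4.44 CPM in KO of experiment 2 (-4.21, adjusted p = 0.0154), against 1.41 (adjusted p = 0.0657) in experiment 1. Gpr132, a receptor linked to lysophosphatidylcholine, fell in experiment 2 (-2.03, adjusted p = 0.00566, against -0.05 in experiment 1, adjusted p = 0.813), and the interaction had an adjusted p of 0.00112. S1pr1, a receptor of sphingosine-1-phosphate, had 1.13 (adjusted p = 1.11e-05) and 0.78 (adjusted p = 0.113). P2ry2, the nucleotide receptor, had -1.12 (adjusted p = 7.27e-05) and 0.43 (adjusted p = 0.114). Of 6 ligands and receptors of don't-eat-me signals, 2 were higher and 3 lower in experiment 1 and 1 was lower in experiment 2 (medians 0.09 and -1.13), against the same backgrounds. Pilra, an inhibitory receptor, fell from 112 and 73.2 CPM to 7.63 and 10.1 CPM in experiment 1 (-3.39, adjusted p = 0.00360) and had -1.14 (adjusted p = 0.101) in experiment 2. Cd47 fell by 0.62 in experiment 1 (adjusted p = 4.64e-05) and had -0.30 (adjusted p = 0.261) in experiment 2. Its receptor Sirpa fell by 0.22 in experiment 1 (adjusted p = 0.0374) and had 0.33 (adjusted p = 0.212) in experiment 2. Lilrb4a, an inhibitory receptor, rose by 0.83 in experiment 1 (adjusted p = 0.0149) and had -1.12 (adjusted p = 0.0601, edgeR) in experiment 2.

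Adaptors carry the signal of the receptors to the cytoskeleton. Of 18 tested adaptors and parts of the engulfment machinery, 1 was higher and 9 were lower in experiment 1 (27.0% and 28.1% of all genes) and 1 was higher and 4 were lower in experiment 2 (7.52% and 8.29% of all genes). The medians were -0.23 and 0.05. Syk, Adam17 and Socs3 fell in both. Adam17, the protease that sheds MERTK from the cell surface, had 614 and 498 CPM in WT and 316 and 308 CPM in KO of experiment 1, and 886 and 781 CPM in WT and 466 and 412 CPM in KO of experiment 2. Its log2 fold changes were -0.85 (adjusted p = 0.000485) and -0.93 (adjusted p = 0.0220). Socs3, a cytokine signalling inhibitor that TAM receptors can induce, had -1.90 (adjusted p = 5.96e-05) and -2.99 (adjusted p = 0.0289). Syk, the kinase downstream of DAP12, had -1.19 (adjusted p = 8.72e-06) and -0.72 (adjusted p = 0.0316). Vav1, an exchange factor for Rac, fell by 1.15 in experiment 1 (adjusted p = 6.96e-06) and had 0.35 (adjusted p = 0.164) in experiment 2.

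Of 21 tested genes of phagosome maturation and digestion, 9 were higher and 3 lower in experiment 1 (27.0% and 28.1% of all genes), and 4 were higher and 2 lower in experiment 2 (7.52% and 8.29% of all genes). The medians were 0.14 and 0.12, and the 2 lower in experiment 2 are near the background. Nr1h3, which encodes LXRα, a sterol receptor known to induce Mertk in macrophages that have taken up dying cells, had 49.1 and 45.6 CPM in WT and 12.1 and 9.85 CPM in KO of experiment 1. In experiment 2 it had 118 and 122 CPM in WT and 28.3 and 23.9 CPM in KO. No KO library reached the lowest WT library, and the groups had log2 fold changes of -2.12 (standard error 0.10, adjusted p = 4.69e-06) and -2.20 (standard error 0.13, adjusted p = 0.00372), and over both of -2.16 (adjusted p = 0.000424 by edgeR). Its partner Rxra had -0.14 (adjusted p = 0.515) and 1.25 (adjusted p = 0.0482). Cybb, a subunit of the NADPH oxidase of the phagosome, had -0.42 (adjusted p = 0.293) and -1.71 (adjusted p = 0.0304). Ucp2, a mitochondrial carrier linked to continued uptake, had 1.31 (adjusted p = 2.29e-06) and -0.26 (adjusted p = 0.368).

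**Figure D4:**
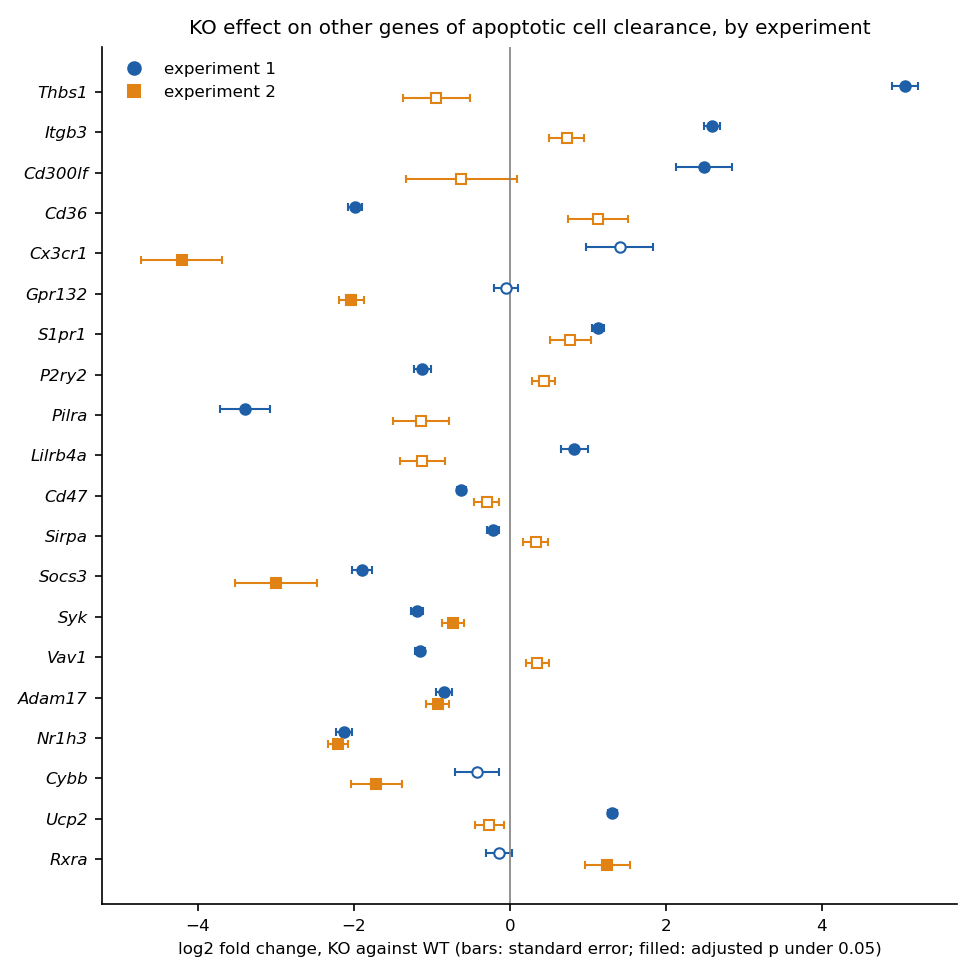
Log2 fold change of KO against WT (horizontal axis) for the 20 named genes of the 5 lists, in experiment 1 (circles) and experiment 2 (squares), with the standard error as bars and filled marks for an adjusted p under 0.05. Nr1h3, Syk, Adam17 and Socs3 have filled marks below 0 in both experiments, while Thbs1 (5.06 and -0.94) and Cd36 (-1.99 and 1.13) lie on opposite sides.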

How the data were processed

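RNA-seq libraries of BMDMs were prepared by the authors with a stranded mRNA kit. The submitters' processing notes name STAR 2.7.0f, featureCounts of Subread 1.6.4, DESeq2 1.22.1 and GRCm38. Annotation and strand setting are not given in the sources used here. The authors deposited raw counts per gene symbol in 1 table per experiment, and normalized counts, a signal, which are those counts divided by a factor of each library (0.891 to 1.09) and were used only to check the unit. Counts were joined by symbol. Replicates were separate libraries, and by a chi-square test none was a copy of another. The labels number each library once, so samples of different groups were not paired.

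Genes passing filterByExpr by genotype (14418, with 99.9% of counts) were tested with edgeR 4.0.16 in R 4.3.3 (TMM, robust quasi-likelihood F test, Benjamini-Hochberg adjustment, threshold 0.05). Experiments were fitted alone. The interaction was tested in a fit of all libraries, and the fit over both experiments had the experiment as a term. Standard errors were derived from the F statistic. The functions were tested on simulated data with known changes, the same variability for every gene and no other difference between the experiments. These settings differ from the data, so that test checks the code and not the calls made here. Shares of TAM receptors used exon lengths of GENCODE M21 (GRCm38), which also gave the gene positions, and an exact permutation test. Promoters came from RefSeq (GRCm38.p6), and GC and TATA boxes were added to the search after the values were seen. Alternatives were DESeq2 1.42.0, upper-quartile scaling, other filters (1 count in total, 10 counts in every library), a fit of all 4 groups, no experiment term, an adjusted p under 0.01, each library left out in turn (where 1 library of a group remains, it is assumed to vary like the other group) and, for the shares, the longest transcript or no length scaling. The text names all 10 members, Mkl1, up to 4 genes per list with the largest change in either experiment among those called there with mean log2 CPM over 3, and markers. Itgb5, Tyrobp, Adgre1, Csf1r, Kdr and the C1q genes were named after their values were seen. The members and lists were chosen with earlier results of these data known. Figures were drawn with matplotlib 3.10.9.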

Additional observations from a re-analysis of the deposited data

Results flagged for a closer look

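The following genes are listed because the KO effect differed between the experiments in edgeR's interaction test. Of all 14418 genes tested, 5996 (41.6%) passed it, so such a difference is not particular to these genes. The genes of the lists were also named for a large change in either experiment. Values are the log2 fold change of experiment 2 minus that of experiment 1. Among the members it was -5.71 for Axl, -2.25 for Gas6, -1.71 for Mfge8 and -1.10 for Trem2, with adjusted p of 0.000917, 0.00157, 0.0494 and 0.0212. For Mkl1 itself it was -0.79 (adjusted p = 0.0238). Among the other receptors and opsonins it was -6.02 for Thbs1, -1.87 for Itgb3, -3.12 for Cd300lf and 3.10 for Cd36. Among genes of find-me signals it was -5.63 for Cx3cr1, -1.99 for Gpr132 and 1.55 for P2ry2, and among those of don't-eat-me signals 2.25 for Pilra, -1.96 for Lilrb4a and 0.54 for Sirpa. Inside the phagocyte it was 0.45 for Syk, 1.49 for Vav1, -1.30 for Cybb, -1.59 for Ucp2 and 1.38 for Rxra. The adjusted p of these other genes was between 0.000381 and 0.0483. The cause of these differences was not tested.

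The shares of the TAM receptors also moved in opposite ways. From experiment 1 to experiment 2 the KO effect on the Mertk share rose by 63.9 percentage points and that on the Axl share fell by 64.4 points. Each KO library of an experiment lay on the same side of its WT libraries, and this difference was not tested.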

How the results depend on the processing

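No paired analysis was possible because the labels give every library a number of its own. With each library left out in turn, in experiment 1 the genes called were between 6349 and 7149 (7948 with all libraries) and the members called between 5 and 8. In experiment 2 the genes called were between 232 and 1388 (2279 with all) and the members between 0 and 1. For the interaction the genes called were between 3935 and 6508 (5996 with all) and the members between 2 and 5. Over both experiments the genes called were between 243 and 1100 (1027 with all) and the members between 0 and 2. With an adjusted p under 0.01, 5750 genes and 5 members were called in experiment 1, and 234 genes and 0 members in experiment 2. The interaction then had 3247 genes and 2 members, and the fit over both had 208 genes and 0 members. In 1 fit of all 4 groups, 5974 genes and 5 members were called in experiment 1, and 4899 genes and 3 members in experiment 2. In the latter, Mertk (adjusted p = 0.0192) and Stab1 (0.0179) joined Axl. With DESeq2, 3173 genes and 3 members were called in experiment 2, and 2492 genes and 3 members over both, where Gas6 (adjusted p = 0.0172) was the gain. With no filter beyond 1 count in total, 28193 genes were tested. There, 9029 genes and 9 members were called in experiment 1, 6725 and 6 in the interaction, and 872 and 1 over both. Timd4 is among the 9 and the 6, and its calls rest on 8 counts in KO 5 and 272 counts in WT 3. With upper-quartile scaling, 4776 genes were higher and 3207 lower in experiment 1 (3892 and 4056 with TMM), and 754 higher and 367 lower over both (536 and 491 with TMM), while the members called stayed 8 and 2. With no experiment term, 4 genes and 0 members were called, and Axl had a log2 fold change of -0.82. With upper-quartile scaling the interaction of Tyro3 was -0.0175. Directions turned in fits without a library for values that were not called: over both experiments Axl ranged from -1.24 to 1.57 and Mfge8 from -0.38 to 0.31, Gas6 in experiment 2 from -0.13 to 0.53, and the interaction from -0.32 to 0.50 for Tyro3, -0.28 to 0.15 for Pros1 and -0.12 to 0.23 for Lrp1. The KO minus WT share, in percentage points, ranged from -1.36 to 19.8 for Mertk, -19.8 to 1.56 for Axl and -0.192 to 0.000239 for Tyro3. The increases of Mertk, Axl, Gas6, Stab1 and Trem2 in experiment 1 kept their direction and stayed past the threshold in the 10 alternatives. The causes of these changes were not tested. Of the members, Tyro3 and Timd4 had low counts, and the effect of depth on any value was not tested.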
